A study of Panax ginseng with 12 samples.

Results

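The ginseng saponins, called ginsenosides, and the plant's sterols are made from the same precursor by a family of enzymes, the oxidosqualene cyclases, and by the cytochrome P450 enzymes that oxidize the products. These enzymes were found in a table of assembled genes by the words dammarenediol, amyrin, cycloartenol synthase, lanosterol synthase, lupeol synthase, protopanaxadiol or oleanolic in the Swiss-Prot name or the protein annotation. The search gave 18 of 44953 rows, 11 of them cyclases and 7 of them P450 enzymes. By the reaction named in the hit, 3 rows belonged to the ginsenoside (dammarane) branch, 9 to the oleanane branch and 6 to the sterol branch. No row was named for lanosterol synthase or lupeol synthase.

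RNA came from embryogenic calli of Panax ginseng, masses of cultured cells that can form somatic embryos. The calli were held in the cold, at 5 °C, or under control conditions, at 20 °C, and sampled after 2, 4 or 6 days, which gave 6 groups of 2 libraries and 12 libraries in all. No genotype or line is named in the labels, and nothing in them says that the libraries of a group were separate cultures, so p-values may measure only a technical spread. The deposited values were TPM, a transcript's share of its library corrected for length. Read numbers are lost in TPM, and library depth is therefore unknown. TPM totals lay between 873298 and 929555 per library, and libraries of the same group correlated at 0.81 to 0.925 across genes. Rows for regulators known from embryogenic tissue summed to 224.4 to 301.8 TPM in control and 213.5 to 269.4 TPM in cold, and of these 10 rows 3 rose and 1 fell. Rows for green tissue (12 rows, 36.72 to 73.4 TPM in control and 65.7 to 90.21 TPM in cold), xylem (8 rows, 65.42 to 112.5 and 59.01 to 104.2 TPM) and seed stores (2 rows, 46.5 to 214.7 and 47.75 to 100.8 TPM) were detected too, and none of these rows was at 0 in all libraries. Green tissue rows gave 2 rises and 1 fall, xylem rows 1 rise and 2 falls, and seed store rows no call by the limma test described further on, which called 23.3% of all rows. On the second principal component of all rows, cold day 2 replicate 3 was far from the rest (138, against 71.1 at most in the others), and cold day 6 replicate 3 was the cold library nearest to the controls on the first (15.4). In bulk RNA, fewer cells of a type and less RNA per cell cannot be told apart.

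As background, squalene is made through the mevalonate pathway and is oxidized to an epoxide. Dammarenediol synthase folds the epoxide towards ginsenosides, beta-amyrin synthase towards oleanane saponins, and cycloartenol synthase towards plant membrane sterols and brassinosteroids. P450 enzymes then hydroxylate the ring systems before glycosyltransferases add sugars. Dammarenediol 12-hydroxylase makes protopanaxadiol, and protopanaxadiol 6-hydroxylase turns that into protopanaxatriol, so that these enzymes stand one after the other.

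In cold, 1 of the 18 members passed the test, a cycloartenol synthase row that fell, and none rose. That call was lost under several of the alternatives tried, as given with the row. The test was limma on log2(TPM + 1) with Benjamini-Hochberg adjustment over the 44600 rows tested, at a false discovery rate of 0.05, for the mean of the 3 daily differences. Across all rows tested, 23.3% passed, 11.3% higher and 12% lower in cold, and the members' 1 of 18 lies below that background. Without the 2 cold libraries that stand apart, a choice made after seeing the data, 2 members were called lower, this row and a beta-amyrin 28-oxidase row (TRINITY_DN25196_c0_g2). Without adjustment, 6 members had p below 0.05. The fitted difference was below 0 for 14 members and above 0 for 4, with a median of -0.31 on the log2 scale against -0.05 over all rows tested. The 6 cold and 6 control values overlapped for each member, while 7.11% of all rows tested had no overlap. All 18 members passed the filter of at least 1 TPM in at least 2 libraries. A fold change on the log2(TPM + 1) scale understates the change of low rows.

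**Figure D1:**
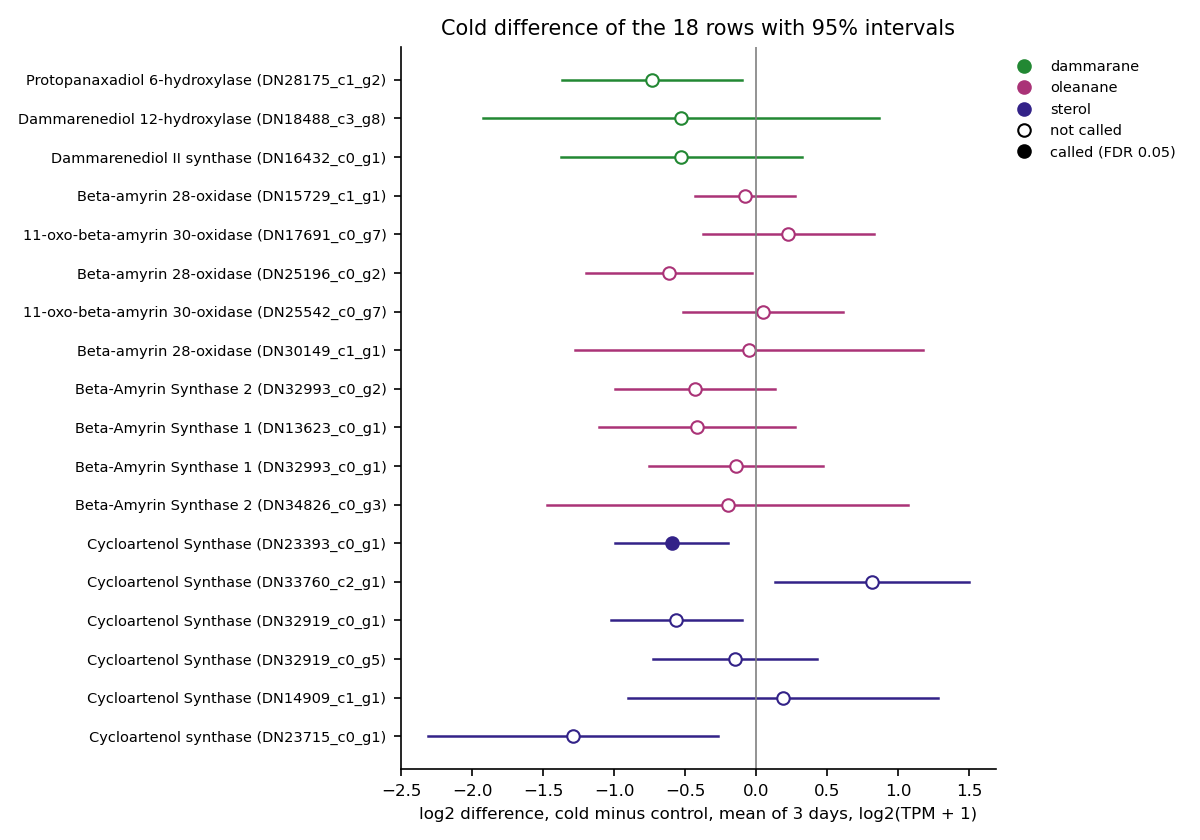
The log2 difference between cold and control, as the mean of 3 days on the log2(TPM + 1) scale, is drawn for the 18 rows with its 95% interval from limma; colours mark the branch and a filled point a row called at a false discovery rate of 0.05. The filled point is the most abundant cycloartenol synthase row, at -0.59, and the point furthest to the right is the second most abundant, at 0.82.

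The ginsenoside branch had 3 rows, 1 for each enzyme, and none passed the test in any comparison. Protopanaxadiol 6-hydroxylase (TRINITY_DN28175_c1_g2, 2700 bases) was the most abundant member. Its control libraries held 744.12 and 325.49 TPM on day 2, 445.52 and 257.72 on day 4, and 331.31 and 552.73 on day 6. Its cold libraries held 377.11 and 383.93 TPM on day 2, 196.4 and 234.1 on day 4, and 130.85 and 277.46 on day 6. At days 4 and 6 both cold values lay below both control values, while on day 2 they lay between them. The log2 difference was -0.73 over the 3 days (SE 0.29; adjusted p = 0.087 by limma). It was -0.37 on day 2, -0.66 on day 4 and -1.16 on day 6. Leaving out control day 2 replicate 3 brought it past the threshold, at -0.93 (adjusted p = 0.042 by limma). The KEGG orthology entry of this row names a brassinosteroid P450 in place of a ginsenoside enzyme, while its Swiss-Prot hit and its annotation both name the 6-hydroxylase.

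Dammarenediol 12-hydroxylase (TRINITY_DN18488_c3_g8, 1800 bases) makes the substrate of the 6-hydroxylase. Control libraries were at 25.85 and 10.76 TPM on day 2, 45.16 and 10.3 on day 4, and 1.44 and 48.22 on day 6. Cold libraries were at 38.53 and 19.34 TPM on day 2, 5.9 and 6.6 on day 4, and 8.51 and 4.41 on day 6. Libraries of the same control day differed more than the means of cold and control did, and the log2 difference was -0.53 (SE 0.64; adjusted p = 0.56 by limma). The 95% interval, from -1.93 to 0.86, spans both directions. KEGG orthology names an abscisic acid 8'-hydroxylase for this row, while its Swiss-Prot hit and its annotation both name the 12-hydroxylase.

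Dammarenediol II synthase (TRINITY_DN16432_c0_g1, 2573 bases) is the cyclase that opens the branch. The KEGG orthology entry of its row names beta-amyrin synthase, while the Swiss-Prot hit and the annotation name dammarenediol synthase. The row was at 6.66 and 2.18 TPM in control day 2, 6.29 and 2.56 in control day 4, and 3.78 and 17.47 in control day 6. In cold it was at 6.62 and 11.76 TPM on day 2, 1.25 and 1.3 on day 4, and 1.85 and 3.37 on day 6. Both cold values lay below both controls at days 4 and 6, and the day 2 values overlapped. The daily log2 differences were 0.9985, -1.16 and -1.41, the test that they are equal did not pass (adjusted p = 0.53 by limma's F test), and the mean was -0.53 (SE 0.39; adjusted p = 0.34 by limma).

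**Figure D2:**
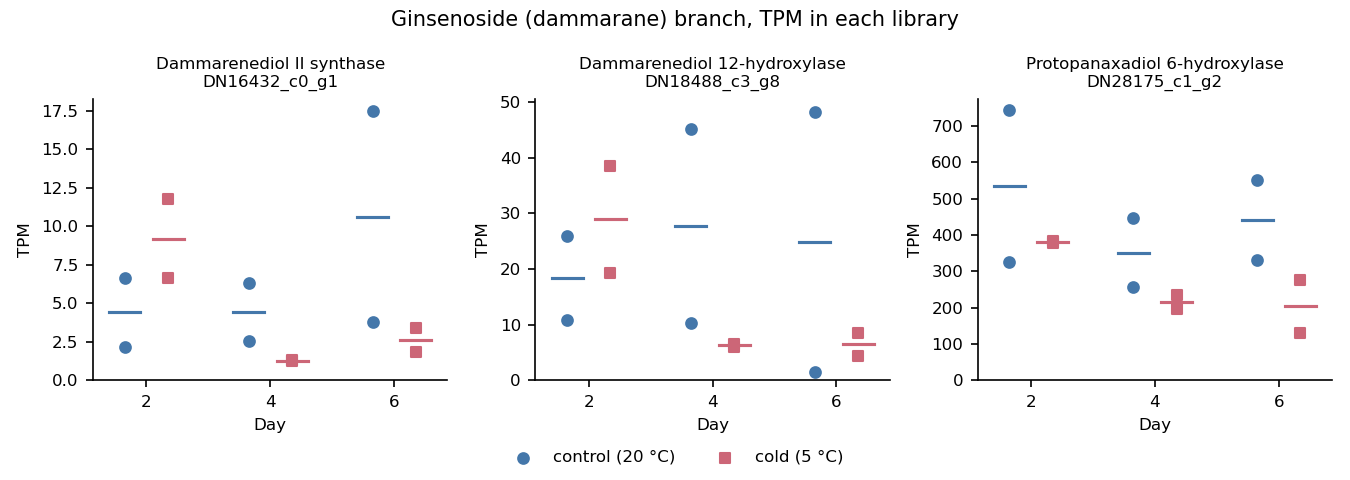
TPM of the 3 ginsenoside branch rows is plotted by day, with 1 point for each library, blue circles for control at 20 °C, red squares for cold at 5 °C, and a bar at the mean of the 2 libraries. The highest 6-hydroxylase value is 744.12 TPM, against 48.22 TPM at most for the 12-hydroxylase and 17.47 TPM at most for the synthase.

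The 6-hydroxylase exceeded the other rows of its branch in every library. Its TPM was 31.6 to 149 times that of dammarenediol synthase in control and 32.6 to 180 times in cold. Relative to the 12-hydroxylase it was 9.87 to 230 times in control and 9.79 to 62.9 times in cold. The log2 ratio to the synthase differed by -0.20 between cold and control, and that to the 12-hydroxylase also by -0.20. Neither difference exceeded the spread between libraries (exact two-sided permutation within days, p = 0.57 and p = 0.82, n = 6 cold and 6 control, adjusted p = 0.86 over 5 ratios for both; the smallest p this design allows is 0.0093).

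By mean TPM the 6-hydroxylase came first, the 12-hydroxylase second and the synthase last, the reverse of their order in the pathway. The lowest 6-hydroxylase value, 130.85 TPM, was above every value of the other rows. The 12-hydroxylase and the synthase overlapped in range, at 1.44 to 48.22 TPM and 1.25 to 17.47 TPM over all libraries.

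In the oleanane branch 0 of 9 rows passed limma's test for the mean effect, with 1 at an unadjusted p below 0.05. The median log2 difference was -0.14, against -0.05 over all rows tested. The cyclases of this branch were 4 beta-amyrin synthase rows, all with Panax ginseng hits. The longest (TRINITY_DN32993_c0_g2, 2932 bases) was at 10.72 and 7.64 TPM in control day 2, 3.78 and 3.67 in control day 4, and 3.28 and 6.45 in control day 6. In cold it was at 7.31 and 7.08 TPM on day 2, 2.15 and 3.85 on day 4, and 3.46 and 1.64 on day 6. The day 2 libraries were the highest at each temperature, and cold and control overlapped at days 4 and 6. Its log2 difference between cold and control was -0.43 (SE 0.26; adjusted p = 0.24 by limma).

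A second row of the same assembly cluster (TRINITY_DN32993_c0_g1, 1361 bases) held 4.43 and 2.59 TPM in control day 2, 6.2 and 3.87 in control day 4, and 2.5 and 2.09 in control day 6. Its cold libraries held 2.82 and 6.6, 2.77 and 3.82, and 2.19 and 1.44 TPM on the same days. The third (TRINITY_DN13623_c0_g1, 622 bases) held 6.87 and 2.15, 6.9 and 3.76, and 2.33 and 3.07 TPM in control and 1.43 and 3.72, 4.04 and 2.96, and 2.13 and 2.13 TPM in cold. Both cold values lay below both controls on day 4 for the second row and on day 6 for the third, and the other days overlapped. The log2 differences over the 3 days were -0.14 (SE 0.28) and -0.42 (SE 0.32), and neither passed. The last row (TRINITY_DN34826_c0_g3, 257 bases) stayed under 5 TPM in every group mean and ranged from 0 to 7.88 TPM. Rows that share a hit can be gene copies, of which the polyploid ginseng genome holds many, or pieces of 1 transcript, and the table does not tell these apart.

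The P450 rows of the branch were more varied. Beta-amyrin 28-oxidase makes oleanolic acid, the aglycone of the oleanane ginsenoside. The row annotated in full as this enzyme (TRINITY_DN30149_c1_g1, 1645 bases) was at 7.95 and 0.81 TPM in control day 2, 0.59 and 0.5 in control day 4, and 0 and 7.75 in control day 6. Cold libraries held 5.41 and 9.35 TPM on day 2, 0.16 and 0.47 on day 4, and 0.81 and 0.34 on day 6. Only 4 libraries, both of cold day 2 and 1 each of control day 2 and control day 6, exceeded 1 TPM. The log2 difference was -0.05 (SE 0.56; adjusted p = 0.96 by limma). KEGG orthology listed this row as an abscisic acid 8'-hydroxylase.

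Another pair of rows had the 28-oxidase as best hit and also carried another name in some annotation column. TRINITY_DN25196_c0_g2 (1042 bases, 24 transcripts) was annotated as beta-amyrin 28-oxidase-like, while KEGG orthology listed it as a ribose 5-phosphate isomerase. That row's Pfam entry was a P450 domain. The row held 8.78 and 6.35 TPM in control day 2, 8.2 and 7.67 in control day 4, and 8.03 and 9.37 in control day 6. Cold libraries held 4.48 and 13.78, 3.98 and 5.24, and 2.44 and 3.86 TPM. Cold lay below control at days 4 and 6, and cold day 2 replicate 3 was the highest of all 12 libraries. The log2 difference of -0.61 (SE 0.27; adjusted p = 0.11 by limma) became -0.85 without that library, where it passed (adjusted p = 0.028). The other row, TRINITY_DN15729_c1_g1 (1031 bases), also had a P450 domain as Pfam entry, while another annotation column named an SH3 domain-containing protein. It held 22.12 and 30.4, 20.65 and 23.65, and 20.81 and 21.93 TPM in control. In cold it held 18.97 and 24.93, 23.09 and 22.49, and 23.17 and 18.8 TPM. Its temperatures overlapped on each day, and the log2 difference was -0.08 (SE 0.16).

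The last 2 P450 rows had an 11-oxo-beta-amyrin 30-oxidase as best hit, an enzyme known from the legumes Glycyrrhiza and Medicago. The annotation of TRINITY_DN17691_c0_g7 named a CYP72A219-like P450, and that of TRINITY_DN25542_c0_g7 an unnamed protein product. KEGG orthology named PHYB activation tagged suppressor 1 for both. TRINITY_DN17691_c0_g7 (335 bases) held 10.53 and 5.87 TPM in control day 2, 16.65 and 7.02 in control day 4, and 10.74 and 10.63 in control day 6. Its cold libraries held 19.26 and 31.97 TPM on day 2, 4.98 and 8.93 on day 4, and 6.68 and 11.96 on day 6. Both cold day 2 libraries were above every control library, and the later cold libraries were not. The day 2 log2 difference was 1.54 (SE 0.48; adjusted p = 0.12 by limma).

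TRINITY_DN25542_c0_g7 (955 bases) held 4.43 and 3.28 TPM in control day 2, 4.68 and 6.2 in control day 4, and 6.34 and 5.19 in control day 6. Cold libraries held 9.69 and 13.22 TPM on day 2, 1.54 and 4.23 on day 4, and 3.09 and 5.43 on day 6. Cold lay above control on day 2 (log2 difference 1.36, SE 0.45) and below it on day 4 (-0.81, SE 0.45), neither of which passed limma's test (Benjamini-Hochberg adjusted p = 0.14 and 0.26).

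**Figure D3:**
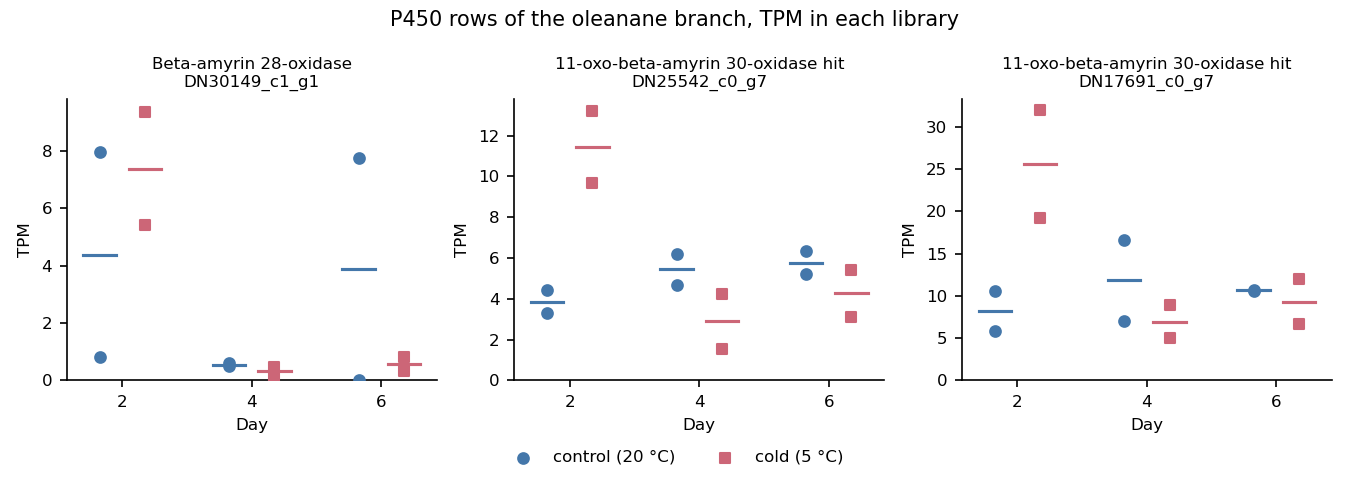
TPM of 3 P450 rows of the oleanane branch is plotted by day, with 1 point for each library, blue circles for control at 20 °C, red squares for cold at 5 °C, and a bar at the mean of the 2 libraries. Both 30-oxidase rows have their highest values in cold day 2, at 13.22 and 31.97 TPM, and the 28-oxidase row is below 1 TPM in 8 of the 12 libraries.

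The sterol branch held most of the cyclase RNA. Cycloartenol synthase rows made up 67 to 78.8% of the summed TPM of the 11 cyclase rows in control libraries and 66.6 to 85.9% in cold libraries. Beta-amyrin synthase rows made up 14.6 to 25.7% in control and 8.58 to 27.3% in cold, and dammarenediol synthase 3.72 to 18.1% and 2.51 to 10.6%. The ranges of cold and control overlapped for each branch. Short rows enter these sums like long ones, so a transcript that was assembled in pieces counts more than once.

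The most abundant cycloartenol synthase row (TRINITY_DN23393_c0_g1, 2181 bases) is the member that fell. It held 20.83 and 15.2 TPM in control day 2, 22.98 and 18.83 in control day 4, and 18.89 and 24.77 in control day 6. Cold libraries held 14.62 and 20.88 TPM on day 2, 10.18 and 8.41 on day 4, and 11.84 and 14.76 on day 6. The temperatures overlapped on day 2 and were apart at days 4 and 6. The control mean was 20.3 ± 3.39 TPM and the cold mean 13.4 ± 4.4 TPM (SD over 6 libraries each), a log2 difference of -0.59 (SE 0.18; adjusted p = 0.036 by limma). At day 4 the difference was -1.09 (SE 0.31) and missed the threshold (adjusted p = 0.054 by limma). Without limma's variance trend the row missed the threshold (adjusted p = 0.057 by limma), and so did the sum of all rows with its hit, given further on. With the replicate number as a block, the call was lost too. The call held in 4 of the 12 fits that each left out a library, with differences from -0.68 to -0.51. It was lost without cold day 2 replicate 1, either cold day 4 library, cold day 6 replicate 2, control day 2 replicate 1, either control day 4 library or control day 6 replicate 3, at adjusted p from 0.058 to 0.096.

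The second most abundant row (TRINITY_DN33760_c2_g1, 2156 bases) has the same Swiss-Prot hit, and its levels lay on the other side. Control libraries held 13.73 and 4.23 TPM on day 2, 17.23 and 8.13 on day 4, and 5.97 and 13.26 on day 6. Cold libraries held 15.46 and 22.04 TPM on day 2, 17.05 and 14.95 on day 4, and 13.69 and 22.63 on day 6. Cold was above control at days 2 and 6 and overlapped with it on day 4. The log2 difference was 0.82 (SE 0.31; adjusted p = 0.078 by limma), which passed without control day 2 replicate 1 (1.07, adjusted p = 0.022) and after median ratio scaling between libraries (0.87, adjusted p = 0.049).

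Within a library, the second row was at 0.278 to 0.75 times the first in control (median 0.484) and at 1.06 to 1.78 times in cold (median 1.34). The 6 cold ratios were all above the 6 control ratios. This pair was compared after its values had been seen, so the ratio is a description with no test. The same ratio was taken for 3109 Swiss-Prot hits with at least 2 rows of at least 500 bases and a mean of at least 5 TPM. Of these hits, 7.24% had a ratio of their most abundant rows that did not overlap between the temperatures. Added together, both rows came to 30.7 ± 8.18 TPM in control libraries and 31.1 ± 7.57 TPM in cold libraries (mean ± SD, n = 6 each). Of each row's Pfam entries only the last was read. It is the N-terminal domain of the cyclase family for the first row and the C-terminal domain for the second. Whether a row holds both domains was not checked. The annotation of the rows names proteins of Panax japonicus and Panax quinquefolius.

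**Figure D4:**
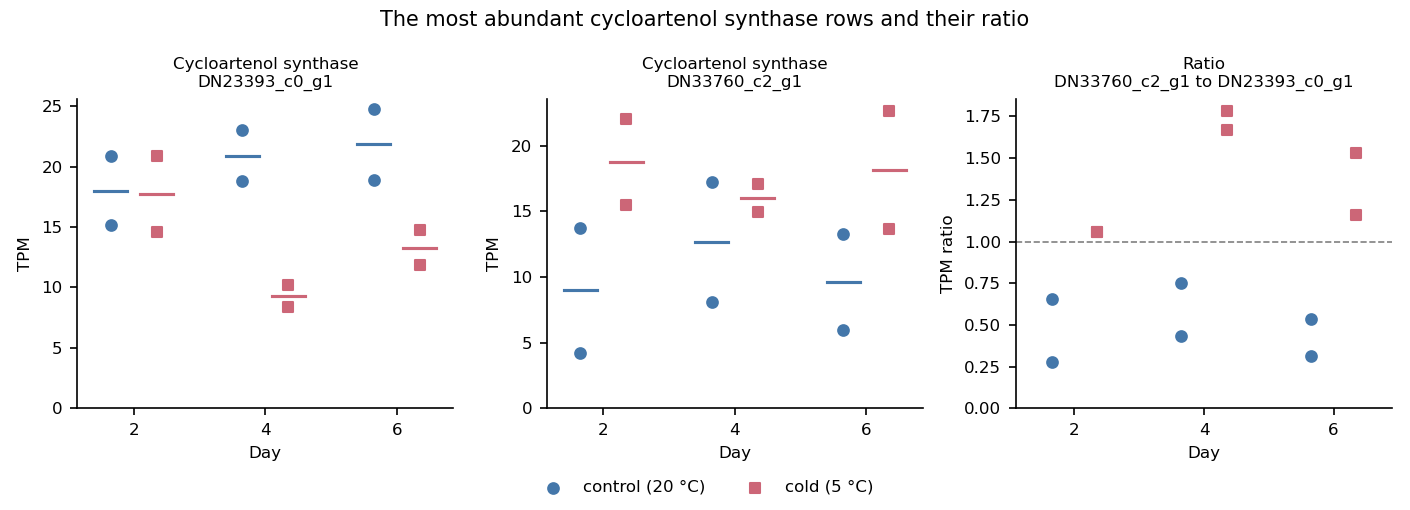
TPM by day of the most abundant cycloartenol synthase rows, and their TPM ratio within each library, with 1 point for each library, blue circles for control at 20 °C, red squares for cold at 5 °C, and bars at the mean of the 2 libraries. The dashed line marks equal TPM: all 6 control ratios lie below it (0.75 at most) and all 6 cold ratios above it (1.06 at least, where the cold day 2 points coincide).

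The remaining cycloartenol synthase rows were shorter or scarcer. TRINITY_DN32919_c0_g1 (612 bases) held 9.56 and 12.23, 11.34 and 12.82, and 9.19 and 8.96 TPM in control and 10.21 and 9.32, 3.14 and 7.38, and 6.86 and 6.45 TPM in cold. Cold lay below control at days 4 and 6, and the log2 difference was -0.56 (SE 0.21; adjusted p = 0.076 by limma). TRINITY_DN32919_c0_g5 (412 bases) held 9.28 and 3.57, 11.27 and 7.56, and 6.1 and 11.83 TPM in control and 10.48 and 12.25, 4.74 and 3.59, and 7.92 and 5.8 TPM in cold. Its cold values were above control on day 2 (log2 difference 0.85, SE 0.45) and below it on day 4 (-0.998, SE 0.45).

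TRINITY_DN14909_c1_g1 (1260 bases) held 6.72 and 0.45, 5.65 and 1.25, and 1.14 and 5.84 TPM in control and 2.74 and 7.7, 3.29 and 1.6, and 3.43 and 2.36 TPM in cold. The temperatures overlapped on each day, and the log2 difference was 0.19 (SE 0.5). KEGG orthology names beta-amyrin synthase for this row, while its hit and its annotation name cycloartenol synthase. TRINITY_DN23715_c0_g1 (1924 bases) had its hit in the birch Betula platyphylla and was annotated as an oxidosqualene cyclase of ginseng with no product named. It stayed under 5 TPM in every group mean, at 0.15 to 6.4 TPM in control and 0 to 1.52 TPM in cold, with a log2 difference of -1.29 (SE 0.47; adjusted p = 0.065 by limma). When the 5 rows with the ginseng cycloartenol synthase hit were summed, control libraries were at 53.1 ± 13.3 TPM and cold libraries at 49.3 ± 13.3 TPM (mean ± SD, n = 6 each). The log2 difference of the sum was -0.11 (SE 0.19; adjusted p = 0.71 by limma).

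Day by day, limma called 0 of 18 members at each of days 2, 4 and 6, against 1.76%, 8.38% and 0.484% of all rows tested, with 2, 3 and 2 members at an unadjusted p below 0.05. The median log2 difference of the members was 0.38 on day 2, -0.64 on day 4 and -0.50 on day 6, against 0.00, -0.16 and -0.03 over all rows tested. Both cold values lay above both controls for 4 members on day 2, 0 on day 4 and 1 on day 6, against 23.5%, 25.9% and 22.8% of all rows tested. They lay below both controls for 1 member on day 2, 11 on day 4 and 8 on day 6, against 21.2%, 36% and 25.5%. Limma's F test that the daily differences are equal called 0 members (0.0157% of all rows tested), with 3 at an unadjusted p below 0.05. The same count was 0 for change over days in control (0% of all rows, 0 members unadjusted) and 0 for change over days in cold (0.601%, 5 members unadjusted). Those 5 were dammarenediol synthase, both 30-oxidase rows, the 28-oxidase row TRINITY_DN30149_c1_g1 and the longest beta-amyrin synthase row, each with its highest cold values on day 2.

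The branches were also set against each other within libraries, with the most abundant row of at least 500 bases for each cyclase. Dammarenediol synthase stood at 0.136 to 0.705 times cycloartenol synthase in control and 0.123 to 0.563 times in cold. Relative to beta-amyrin synthase it stood at 0.285 to 2.71 times in control and 0.338 to 2.05 times in cold. Beta-amyrin synthase stood at 0.164 to 0.515 times cycloartenol synthase in control and 0.111 to 0.5 times in cold. The log2 ratios differed between cold and control by 0.07, -0.10 and 0.16, all within the spread of libraries (exact two-sided permutation within days, n = 6 and 6, adjusted p = 0.86 over 5 ratios for each). With the second cycloartenol synthase row as denominator, a choice made after its values were seen, the differences were -1.34 for dammarenediol synthase and -1.25 for beta-amyrin synthase, given as a description with no test.

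Several members had their highest levels in the same libraries. The 5 libraries with the highest levels were the same for protopanaxadiol 6-hydroxylase, dammarenediol 12-hydroxylase, dammarenediol synthase and the cycloartenol synthase row TRINITY_DN32919_c0_g5. They were cold day 2 replicates 1 and 3, control day 2 replicate 1, control day 4 replicate 1 and control day 6 replicate 3. These 5 libraries were also the highest on the second principal component of all rows (28.1 to 138), which held 14.9% of the variance. Of 28395 rows with a mean of at least 5 TPM, 0.799% had exactly these libraries at the top. The comparison was made after the values were seen, and the part of whatever sets these libraries apart in the members' levels was not tested.

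Over the 12 libraries, dammarenediol synthase and the 6-hydroxylase correlated on the log2(TPM + 1) scale at Pearson's r = 0.771 and Spearman's rho = 0.909 (permutation, adjusted p = 0.013 and 0.0022 over 15 pairs of 6 rows). The r was 0.739 within control, 0.805 within cold and 0.813 without the 2 libraries farthest from the median. Dammarenediol synthase and the most abundant cycloartenol synthase row gave r = 0.819 and rho = 0.832 (permutation, adjusted p = 0.0095 and 0.006), with 0.892 within control, 0.935 within cold and 0.786 without the farthest 2 libraries. In all, 10 of the 15 pairs had an adjusted permutation p below 0.05 for Pearson's r. The 6 rows were the most abundant of at least 500 bases for each enzyme, except for the 28-oxidase. For that enzyme the row annotated in full was taken (TRINITY_DN30149_c1_g1, mean 2.845 TPM). It was less abundant than TRINITY_DN25196_c0_g2 (6.8 TPM) and TRINITY_DN15729_c1_g1 (22.6 TPM), and it enters several of the pairs below 0.05. The pairs share libraries, so they are not independent of each other. The permutation ran over all 12 libraries without regard to temperature or day, so differences between groups enter these correlations. The share over other pairs of rows was not computed.

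The pattern of the 6-hydroxylase over the 12 libraries was matched most closely, among 11946 annotated rows with a mean of at least 5 TPM, by rows whose hits are mostly unrelated enzymes. They were a beta-galactosidase (BGAL3, TRINITY_DN32024_c0_g1, r = 0.922), a bifunctional aspartokinase and homoserine dehydrogenase (TRINITY_DN17966_c2_g6, r = 0.921) and a lipid phosphate phosphatase (LPP3, TRINITY_DN26240_c0_g1, r = 0.916). A branched-chain aminotransferase-like protein (At3g05190, TRINITY_DN26901_c1_g1, r = 0.915) and an interactor of ROP GTPases (ICR2, TRINITY_DN31248_c0_g1, r = 0.913) followed. Among the other members r with the 6-hydroxylase was at most 0.771, for dammarenediol synthase, and at least -0.133, for TRINITY_DN15729_c1_g1.

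Rows of the pathway on both sides of the cyclases were counted in the same way. Of 35 rows from the mevalonate pathway to squalene epoxide, 6 fell, 0 rose and 29 did not pass, beside 12% of all rows called lower and 23.3% called in either direction. The median log2 difference was -0.22, against -0.05 over all rows. Those that fell the most were a row for HMG-CoA reductase, the rate-limiting enzyme of the mevalonate pathway (HMG1, TRINITY_DN25654_c0_g2), from 13.3 ± 7.07 to 4.28 ± 1.54 TPM, and a short squalene synthase row (TRINITY_DN12148_c0_g1, 334 bases, log2 difference -1.09). The other squalene synthase rows did not pass, a longer and more abundant one (TRINITY_DN32411_c0_g2, 1733 bases, 65.2 TPM in control) at -0.32 (SE 0.21; adjusted p = 0.28 by limma) and a short one (TRINITY_DN28810_c0_g2, 415 bases) at 0.60 (SE 0.33; adjusted p = 0.19 by limma). The HMG1 difference was -1.35 (SE 0.33; adjusted p = 0.016 by limma) and missed the threshold without the cold libraries that stand apart (-1.19, adjusted p = 0.078). Other HMG-CoA reductase rows did not all fall. A row of the same assembly cluster (TRINITY_DN25654_c0_g1) was at 0.0008 (SE 0.24), and the most abundant (HMG2, TRINITY_DN35207_c0_g1, 35.7 TPM in control) at 0.096 (SE 0.30). A short row (TRINITY_DN35207_c0_g6, 375 bases) fell too (-0.58; adjusted p = 0.040 by limma). Another (TRINITY_DN14178_c0_g2, 428 bases) was at 0.99 (adjusted p = 0.12 by limma). The summed TPM of the list overlapped, at 853.7 to 1163 in control and 842.1 to 1020 in cold.

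Of 14 rows for sterol synthesis after the cyclase, 6 fell, 0 rose and 8 did not pass, beside 12% of all rows called lower. The median log2 difference was -0.73, against -0.05 over all rows. The row with the largest fall was DWF5 (TRINITY_DN23175_c0_g1), a sterol reductase that Arabidopsis needs for normal growth, from 49.6 ± 20.6 to 14.8 ± 6.62 TPM (SD over 6 libraries). The log2 difference was -1.69 (SE 0.26; adjusted p = 0.0022 by limma), and it was called in each of the 12 fits without a library. SMT1 (TRINITY_DN32862_c0_g2), the methyltransferase that acts on cycloartenol, fell from 59.3 ± 14.7 to 31.9 ± 15 TPM, a log2 difference of -0.95 (SE 0.26; adjusted p = 0.026 by limma), and was called in 5 of those 12 fits. The summed TPM of the 14 rows was 397.2 to 549.9 in control and 187.1 to 385.9 in cold, with no overlap. Of single rows tested, 7.11% had no overlap, and the share for sums of other rows was not computed. The called rows TRINITY_DN32862_c0_g1 and TRINITY_DN32862_c0_g2 are of the same assembly cluster, both with an SMT1 hit. The 6 rows need not be separate genes, and a transcript assembled in pieces counts more than once in the sum. At day 4 limma called 5 of the 14, all lower, against 8.38% of all rows.

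The number of called rows in both lists changed with the libraries left out, and is given without the calls over all rows. Without cold day 2 replicate 1 or 3, either cold day 4 library, cold day 6 replicate 2, either control day 4 library or control day 6 replicate 2, it fell to 2 or 3 of the 35 mevalonate rows. Without cold day 2 replicate 3, either cold day 4 library, cold day 6 replicate 2, control day 4 replicate 1 or control day 6 replicate 2, it fell to 2 or 3 of the 14 sterol rows. Without both cold libraries that stand apart, 5 and 6 rows were called, all lower.

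NADPH-P450 reductases pass electrons to the P450 enzymes. Of 10 rows, 3 rose and 1 fell, beside 11.3% of all rows called higher and 12% called lower. The summed TPM, in which a transcript assembled in pieces counts more than once, was 272.8 to 321.8 in control and 340.2 to 557 in cold. Rows of the same assembly cluster did not always move together. TRINITY_DN17828_c0_g2 (1560 bases) rose (log2 difference 1.03, SE 0.21; adjusted p = 0.0079 by limma), while TRINITY_DN17828_c0_g1 (558 bases) fell. TRINITY_DN24847_c0_g2 (825 bases) was at 0.05 (SE 0.15), while TRINITY_DN24847_c0_g1 (1774 bases) rose. TRINITY_DN24847_c0_g1 rose from 15.8 ± 5.68 to 47.5 ± 21.6 TPM, a log2 difference of 1.43 (SE 0.22; adjusted p = 0.0022 by limma). TRINITY_DN29228_c0_g1 rose from 56.2 ± 9.35 to 138.4 ± 55.3 TPM (log2 difference 1.21), and both were called in all 12 fits without a library. The row that fell, TRINITY_DN17828_c0_g1 (log2 difference -0.54, SE 0.17; adjusted p = 0.043 by limma), was called in 3 of the 12 fits without a library and lost its call when libraries were scaled by median ratio (-0.49, adjusted p = 0.056 by limma).

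Of 50 glycosyltransferase rows whose annotation carries a ginsenoside or ginseng glycosyltransferase word, 7 rose and 5 fell, with a median log2 difference of -0.08. This share is near the 23.3% of all rows called, so the counts say nothing particular about these rows. Their best hits are varied, and 0 of the 50 name a ginsenoside enzyme. The largest rises were in rows with the hits UGT85A8 (TRINITY_DN23880_c0_g2), from 12.2 ± 10.5 to 248.8 ± 238.7 TPM, and ZOX1 (TRINITY_DN20645_c1_g5), from 2.41 ± 3 to 14.2 ± 9.23 TPM. The largest falls were in rows with the hits UGT71E1 (TRINITY_DN14127_c0_g1), from 8.05 ± 6.36 to 0.557 ± 0.706 TPM, and UGT86A1 (TRINITY_DN17615_c1_g1), from 5.09 ± 2.52 to 0.892 ± 0.534 TPM (SD, n = 6). The log2 differences were 3.98, 2.22, -2.26 and -1.63, and that of UGT71E1 missed the threshold without the cold libraries that stand apart (adjusted p = 0.054 by limma).

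**Figure D5:**
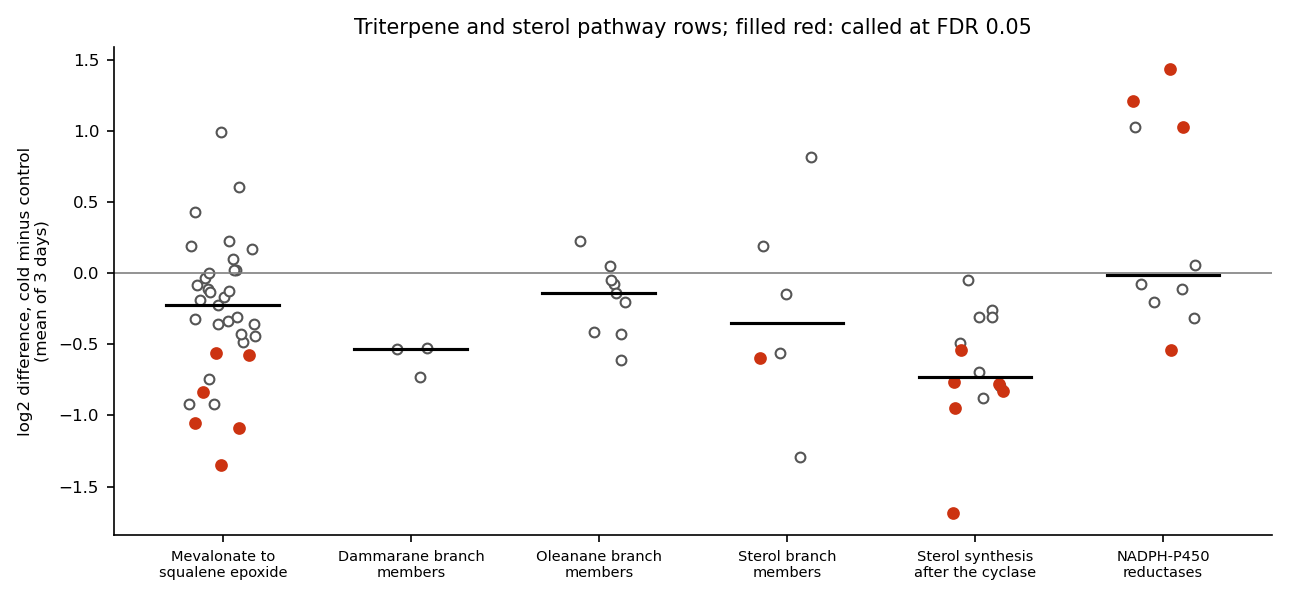
The log2 difference between cold and control (mean of 3 days, log2(TPM + 1) scale) is drawn for each row of the pathway, 1 point per row, with a black bar at the median of each list and filled red points for rows called by limma at a false discovery rate of 0.05. The 6 called rows of sterol synthesis after the cyclase all lie below 0, and 1 of the 18 cyclase and hydroxylase members is filled.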

How the data were processed

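Total RNA of ginseng calli was sequenced in 12 libraries. The authors deposited TPM values per gene of a Trinity assembly, per the file headers with length and annotation; the unit was read from the values. Per the submitters' processing notes cutadapt, FastQC, Salmon and edgeR were used, with roles and versions not given in the sources used here. How near-identical copies shared reads is unknown. No genome was used.

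The members and gene lists were chosen with earlier results of these data known. Rows that reached 1 TPM in 2 or more libraries (44600 of 44953) were taken as log2(TPM + 1), and fitted to the 6 groups with limma 3.58.1 (variance trend, equal weights) in R 4.3.3, since no read counts are held. P-values were adjusted over all rows (Benjamini-Hochberg, false discovery rate 0.05). Branch ratios were tested by exact permutation within days, in python 3.11.15 with scipy 1.17.1.

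Members with at least 5 TPM in a group mean are given with all values (16 of 18). Of the pathway lists, the called rows with the 2 largest rises and falls are named, and of the tissue lists counts only. The 9 lists are word patterns on the annotation. The list for other oxidases of the CYP716 family found no row outside the members. On simulated data for the mean effect, with 44600 rows, limma called 26% of changes of 2-fold and 76% of changes of 4-fold, and 7 of its 109 calls were false. For days 2, 4 and 6 these were 0% of 2-fold and 21%, 17% and 13% of 4-fold changes. The simulation changed a far smaller share of rows than the 23.3% called for the mean effect in the data. The share recovered depends on how many rows change, so these values do not measure power in the data. Alternatives were other pseudocounts, filters and scalings, no trend, a replicate block, sums by hit, single days and each library left out.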

Additional observations from a re-analysis of the deposited data

Results flagged for a closer look

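Among the members, 2 rows had both cold libraries on opposite sides of both control libraries on different days. For the 30-oxidase row TRINITY_DN25542_c0_g7 the log2 difference was 1.36 at day 2 and -0.81 at day 4, and the test that the 3 daily differences are equal did not pass (adjusted p = 0.40 by limma's F test). For the cycloartenol synthase row TRINITY_DN32919_c0_g5 it was 0.85 at day 2 and -0.998 at day 4 (adjusted p = 0.51 by limma's F test). With 2 libraries on each side, 23.5% of all rows tested had cold above control at day 2 and 36% had cold below control at day 4. Groups of 2 libraries are too small to flag a single library.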

How the results depend on the processing

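For the mean effect, 1 member was called in the fit as reported, 0 with a replicate block, without a variance trend or with rows summed by Swiss-Prot hit, and 2 with median ratio scaling or without the 2 cold libraries that stand apart. Leaving out 1 library at a time gave 0 to 2. At day 4, 1 member (none as reported) was called with a filter of at least 5 TPM or with that day's 4 libraries alone, and no fit without a library called a member at days 2, 4 or 6. These member counts are given without the calls over all rows in each fit, so general gains or losses of calls are not separated out. Numbers in the sample names do not pair the libraries (correlations of deviations -0.19 at day 2, 0.01 at day 4 and -0.01 at day 6), so the block shows only that a call is lost. Of the 18 members, 11 kept their sign in all 12 fits without a library and 7 changed it at least once. The ranges of the 7 were -0.21 to 0.59 (TRINITY_DN14909_c1_g1), -1.25 to 0.19 (the 12-hydroxylase), -0.12 to 0.22 (TRINITY_DN25542_c0_g7), -0.57 to 0.47 (TRINITY_DN30149_c1_g1), -0.34 to 0.0471 (TRINITY_DN32919_c0_g5), -0.31 to 0.024 (TRINITY_DN32993_c0_g1) and -0.61 to 0.21 (TRINITY_DN34826_c0_g3).

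Signs turned for TRINITY_DN30149_c1_g1 at a pseudocount of 0.1 (0.0627) and after quantile normalization (0.0885), and for TRINITY_DN34826_c0_g3 at a pseudocount of 5 (0.0124). They turned for TRINITY_DN33760_c2_g1 and TRINITY_DN14909_c1_g1 when summed with the other rows of their hit (-0.11 for the sum), and for TRINITY_DN17691_c0_g7 (-0.0151) and TRINITY_DN25542_c0_g7 (-0.13) without the 2 cold libraries that stand apart. Summing by hit also turned UGT71E1 (0.24), ZOX1 (-0.30) and the reductase row TRINITY_DN17828_c0_g1 (0.66), since the sums hold other rows. The cause of the other turns was not tested.

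The log2 ratio of dammarenediol synthase to cycloartenol synthase turned to -0.0577 at a pseudocount of 0.1, -0.34 with summed rows and -1.34 with the second cycloartenol synthase row, and ranged from -0.19 to 0.33 without a library. That of beta-amyrin synthase to cycloartenol synthase turned to -0.20 with summed rows and -1.25 with the second row, and ranged from -0.0105 to 0.34. The ratio of dammarenediol synthase to beta-amyrin synthase ranged from -0.33 to 0.13, and that of the 6-hydroxylase to the 12-hydroxylase from -0.80 to 0.40.

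Called rows of the mevalonate list numbered 6 as reported, 2 with the replicate block, 3 without a trend, 3 after summing by hit (18 sums), and 2 to 5 without a library. The sterol list gave 2 to 7 without a library, the reductases 3 to 4 and, summed, 1 (of 2 sums), and the glycosyltransferases 10 to 13 and, summed, 6 (of 28 sums). No other alternative moved a count by over 1.5 times. The list counts too are given without the calls over all rows in each fit. TPM holds no depth. In the simulation, which changed a smaller share of rows than were called in the data, most changes within 1 day were missed.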
